A study of Mus musculus with 10 samples.

Results

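miR-376b, miR-300 and miR-381 are mature microRNAs (miRNAs) from the middle of the large miRNA cluster at the imprinted Dlk1-Dio3 locus of mouse chromosome 12. They were taken from the deposited table by name, as the rows named miR-376 with any letter, miR-654, miR-300, miR-381, miR-487b, miR-539, miR-3072 or miR-544, and 3 of the 285 miRNA rows of the table met that rule. The other names of the rule (miR-376a, miR-376c, miR-654, miR-487b, miR-539, miR-3072 and miR-544) were not analysed here. Small RNA was sequenced from the livers of 14-week-old mice, 5 libraries from Tsc1 mutants, called L-Tsc1KO in the labels, and 5 from littermate controls. All mice had free access to food and water. The labels name no Cre driver, no strain and no sex, and do not say whether any allele was also carried by the controls. Tsc1 encodes a subunit of the TSC complex, which holds back the growth regulator mTORC1. The level of Tsc1 itself was not analysed here, and the genotypes are those of the labels.

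A miRNA is cut from a hairpin precursor, and 1 arm of the hairpin is loaded into an Argonaute protein, where bases 2 to 8, the seed, pair with target messenger RNAs. The miRNAs of Dlk1-Dio3 are expressed from the maternally inherited chromosome as parts of long non-coding transcripts, and they are abundant in embryo, placenta and brain and low in adult liver. In mice the cluster from miR-379 to miR-410 is known to act in the newborn liver, where it takes part in the switch to glucose production after birth. Of the members, miR-376b is known from human cells to repress the autophagy genes ATG4C and BECN1. Primary transcripts of miR-376 and miR-381 are known to undergo adenosine-to-inosine editing in brain, which a sequencer reads as an A-to-G change.

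The deposited names carry no arm, so both mature arms of each hairpin are shown, with the seed in capitals. The sequences are from RefSeq on GRCm38.p6, 5′ to 3′, and all 3 members matched an entry.
miR-376b-5p: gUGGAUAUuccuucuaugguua
miR-376b-3p: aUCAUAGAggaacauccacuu
miR-300-5p: uUGAAGAGagguuauccuuugu
miR-300-3p: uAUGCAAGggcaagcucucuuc
miR-381-5p: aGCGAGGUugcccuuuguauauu
miR-381-3p: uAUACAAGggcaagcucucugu
The 3p arms of miR-381 and miR-300 are alike in 19 of 22 bases. Written from miR-381-3p to miR-300-3p and counted from the 5′ end, they differ by A4G, G21U and U22C, so that 1 of the differences lies in the seed. The seed of miR-376b-3p differs from that of miR-381-3p at 5 positions and from that of miR-300-3p at 6. None of the 3p seeds was found in another mature miRNA among the 1679 searched. For miR-376c, miR-487b and miR-539 the entries used here held only the 5p arm, so their 3p arms were not searched. The miR-539 hairpin contains the bases of the miR-381-3p seed, so that seed may not be unique to miR-381. The 5p seed of miR-376b was found in miR-376c-5p alone.

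Arms of miR-376c and miR-376a, which were not analysed here, are shown because they are close to arms of miR-376b.
miR-376c-5p: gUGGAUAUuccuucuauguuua
miR-376a-3p: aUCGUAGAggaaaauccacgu
The 5p arms of miR-376b and miR-376c are alike in 21 of 22 bases and differ by G19U, outside the seed. The 3p arms of miR-376b and miR-376a are alike in 18 of 21 bases. Written from miR-376b-3p to miR-376a-3p, the seed difference is again A4G, with C13A and U20G outside the seed. How reads with 1 or more mismatches were assigned is not given in the sources used here. Reads that carry an A-to-G change from editing, and reads shared between these relatives, could therefore sit under either name, and the values of miR-300, miR-381 and miR-376b are uncertain to that extent.

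The hairpins are shown to place the arms, with the 3p arm in capitals.
miR-376b hairpin: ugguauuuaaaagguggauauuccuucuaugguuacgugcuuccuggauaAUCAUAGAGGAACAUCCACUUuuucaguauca
miR-300 hairpin: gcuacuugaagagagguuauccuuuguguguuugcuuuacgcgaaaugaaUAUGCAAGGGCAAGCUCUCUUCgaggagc
miR-381 hairpin: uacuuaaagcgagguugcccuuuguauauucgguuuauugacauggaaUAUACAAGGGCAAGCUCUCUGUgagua
In a global alignment the hairpins of miR-300 and miR-381 were identical in 73.8% of aligned columns. The hairpin of miR-376b reached 58.6% with miR-300 and 55.3% with miR-381. All 3 hairpins lie on the plus strand in the GENCODE M21 annotation of GRCm38, miR-376b at chr12:109723458-109723539, miR-300 at chr12:109724313-109724391 and miR-381 at chr12:109726822-109726896. They span 3439 bases, with 773 bases between miR-376b and miR-300 and 2430 between miR-300 and miR-381. None of them overlaps an exon or intron of a gene other than miRNA genes in this annotation. The long non-coding RNA Rian ends 61741 bases before miR-376b, and Mirg, the non-coding RNA that holds the end of the cluster, starts 2867 bases after miR-381.

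All 3 miRNAs were higher in Tsc1 mutant liver, by a factor of 8.77 for miR-376b, 5.88 for miR-300 and 7.19 for miR-381 on the log2(value + 1) scale. For each of them the lowest mutant exceeded the highest control. Values are normalised reads, which are the authors' read counts divided by 1 factor per library, and differences were tested with limma over all 285 miRNAs with Benjamini-Hochberg adjustment at 0.05. Of all miRNAs 10.9% passed as higher and 2.11% as lower, and 10.2% had groups that did not overlap, with the mutants above. Among the 254 miRNAs outside the Dlk1-Dio3 list 1.18% passed as higher, 2.36% passed as lower and 1.18% had all mutants above. For the 31 listed miRNAs of the locus these shares were 90.3% higher, 0% lower and 83.9% with all mutants above. Without the members, the other 28 stood at 89.3% higher and 82.1% with all mutants above, so the 3 of 3 seen here is close to what the rest of the locus did. The list holds 57 names, and only those with a row in the table count here. All 285 rows averaged 5 normalised reads or more. A faint miRNA can reach that through the mutants, as did miR-377 with means of 2.69 in controls and 23.1 in mutants. How rows were selected is not given, so the shares of the locus may be too high. In bulk liver, more cells of a type and more RNA per cell cannot be told apart.

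On the log2(value + 1) scale the miRNA with the highest fold change of the table was miR-376b. The next was miR-665, at 3.00 (95% interval 2.17 to 3.83), from means of 5.64 and 47.1 normalised reads. That interval overlaps the one of miR-376b, and the added 1 understates changes of miRNAs with few reads, so their order is not settled. In controls miR-376b measured 41.6, 74.7, 32.8, 77.4 and 41.0 normalised reads in replicates 1 to 5. In mutants it measured 403, 512, 492, 562 and 323. Among controls replicates 2 and 4 were high and replicate 3 low, and among mutants replicate 5 was low, and the lowest mutant still lay 4.17 times above the highest control. The group means were 53.5 ± 20.9 and 458 ± 95.2 (SD, n = 5 each). The log2 fold change was 3.13 ± 0.28 (SE, 95% interval 2.52 to 3.74), with a limma adjusted p of 1.37e-05. By mean level miR-376b ranked 202 of 285 in controls and 125 in mutants.

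miR-300 had the smallest fold change of the members and the widest spread among controls. It measured 79.9, 107, 34.5, 47.1 and 55.4 normalised reads in control replicates 1 to 5. In mutant replicates 1 to 5 it measured 460, 377, 405, 376 and 222. Control replicates 1 and 2 were high here, whereas replicate 4, which was high for miR-376b, was not. The lowest mutant, replicate 5, lay 2.07 times above the highest control. The group means were 64.9 ± 29.0 and 368 ± 88.2 (SD, n = 5 each). The log2 fold change was 2.56 ± 0.32 (SE, 95% interval 1.86 to 3.25), with a limma adjusted p of 1.40e-04. That fold change ranked 17 of 31 in the locus list, which is near its middle.

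The most abundant member in every library was miR-381. Control replicates 1 to 5 held 190, 322, 133, 242 and 140 normalised reads. Mutant replicates 1 to 5 held 1390, 1547, 1618, 1615 and 963. As for miR-376b, control replicates 2 and 4 were high and mutant replicate 5 was low, and the lowest mutant lay 2.99 times above the highest control. The means were 205 ± 78.8 and 1427 ± 275 (SD, n = 5 each). The log2 fold change was 2.85 ± 0.26 (SE, 95% interval 2.26 to 3.43), with a limma adjusted p of 1.75e-05. Within the locus list miR-381 ranked 4 of 31 by mean level in both genotypes and 5 of 31 by fold change. The mature arms differ little in length, so no length scaling was applied, but levels of different miRNAs also depend on how well each sequence enters a library, which was not measured.

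**Figure D1:**
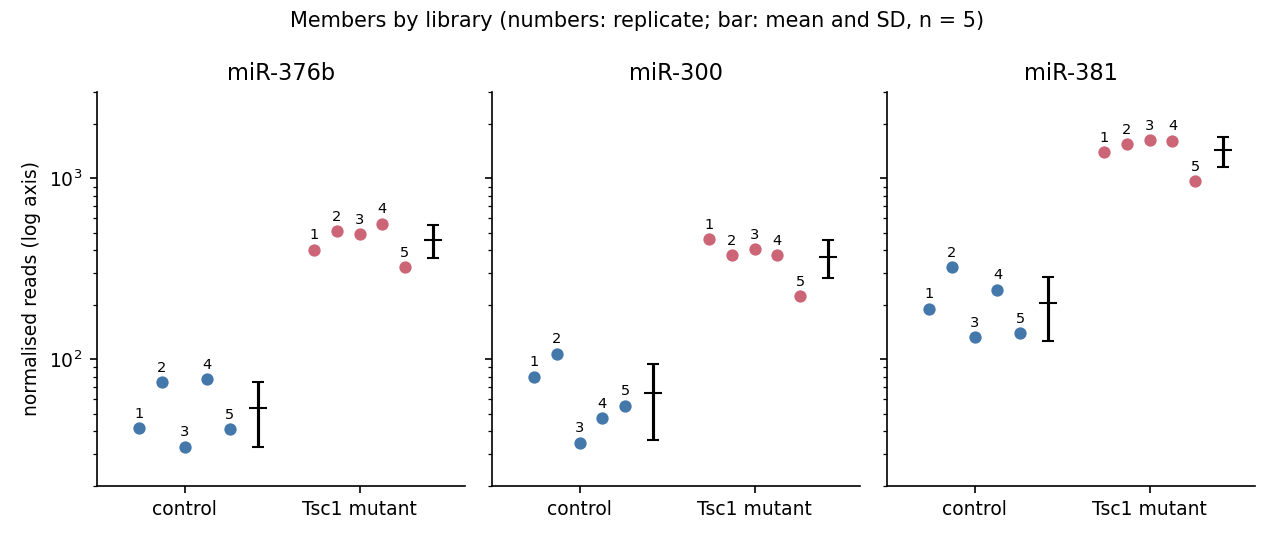
Normalised reads (log axis) of miR-376b, miR-300 and miR-381 in each library, numbered by replicate, with the mean and SD of 5 libraries per genotype as a bar. Each mutant point lies above all control points of its panel, and mutant replicate 5, at 323, 222 and 963 normalised reads, is the lowest mutant in all 3.

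Depth was enough to see the members in every library. Each library held between 6228497 and 12129069 reads over the listed miRNAs. In whole reads, miR-376b had 38 to 105 in controls and 325 to 603 in mutants, miR-300 had 28 to 151 and 224 to 529, and miR-381 had 136 to 453 and 970 to 1823. The spread between control libraries exceeded what counting alone gives. The coefficient of variation among controls was 39.1% for miR-376b against 14.3% from counting, 44.7% against 13.8% for miR-300 and 38.4% against 7.38% for miR-381. Among mutants it was 20.8% against 4.81% for miR-376b, 23.97% against 5.48% for miR-300 and 19.3% against 2.74% for miR-381. The relative spread was thus smaller in mutants for all 3, a difference that was not tested.

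Together the members made up a small part of liver miRNA. Their sum was 312, 504, 200, 367 and 236 normalised reads in control replicates 1 to 5, and 2253, 2436, 2515, 2553 and 1508 in mutant replicates 1 to 5. The 2 ranges do not overlap, with the lowest mutant 2.99 times above the highest control. As a share of all miRNA reads, the sum averaged 34.7 ± 15.1 per 1000000 for controls and 245 ± 48.0 for mutants (SD over 5 libraries). The lowest mutant, replicate 5, had 162 per 1000000 (95% exact binomial interval 154 to 170) and the highest control, replicate 2, had 58.5 (54.2 to 62.9). These sums are a description without a test, because the members were chosen with results of these data known.

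The mean share of miR-381 in the sum of the 3 differed between genotypes by less than its SD, since miR-381 made up 63.3 ± 3.16% (controls) and 63.3 ± 1.00% (mutants) of their sum (SD over 5 libraries). The share of miR-376b was 16.6 ± 2.95% in controls and 20.4 ± 1.65% in mutants, and that of miR-300 was 20.1 ± 5.11% and 16.3 ± 2.37%. Within single controls the order of the 2 less abundant members changed. In control replicate 1 miR-376b stood at 0.526 of miR-300, and in control replicate 4 at 1.63. Control replicate 4 had the fewest miRNA reads of all libraries, and its ratio came from 46 and 28 whole reads. In mutants replicate 1 was the only one with less miR-376b than miR-300, at 0.877, and the other 4 lay between 1.22 and 1.49.

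Whether the members differed in their response was tested on the log2 ratio of 1 to the other within each library, with 1 added to each value, which removes nearly all of the scaling between libraries. Exact permutation tests were 2-sided, and p-values were adjusted over the 6 ratios tested. The ratio of miR-376b to miR-381 was higher in mutants by 0.29 ± 0.11 on the log2 scale (SE, 95% interval of the exact test 0.01 to 0.57, p = 0.0476, adjusted p = 0.143). In 3 of 5 mutants it lay above every control. The ratio of miR-376b to miR-300 was higher by 0.58 ± 0.31 (interval -0.16 to 1.23, exact adjusted p = 0.214), and that of miR-300 to miR-381 was lower, at -0.29 ± 0.22 (interval -0.79 to 0.30, exact adjusted p = 0.276). None of the 3 pairs passed after adjustment, so a difference in response between members was not shown, and the intervals leave room for one of up to 1.23 on the log2 scale. Control replicate 4, in which miR-376b was high against both others, weighs on the outcome. Without it the ratio of miR-376b to miR-300 differed by 0.81 and that to miR-381 by 0.36, both with an exact adjusted p of 0.0476.

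The members were set against the rest of the locus in the same way, as the log2 ratio of a member to the sum of the other 28 listed miRNAs. That sum ran from 2462 to 5478 normalised reads in controls and from 14215 to 24531 in mutants. The ratio of miR-376b to it was higher in mutants by 0.52 ± 0.14 (SE, interval 0.18 to 0.86), and 4 of 5 mutants lay above every control. Its exact p was 0.0159 and its adjusted p 0.0952, short of the threshold. The adjusted p was 0.0476 without control replicate 1 (0.57), without control replicate 4 (0.61) and with the rest of the locus taken as a mean of log2 values (0.74), in exact permutation tests. For miR-381 the difference was 0.24 ± 0.14 (interval -0.07 to 0.55, exact adjusted p = 0.214). It passed without control replicate 1, at 0.35, and with the mean of log2 values, at 0.46, both with an exact adjusted p of 0.0476. For miR-300 the difference was -0.05 ± 0.29 (interval -0.71 to 0.61, exact adjusted p = 0.897), and its sign turned without control replicate 1 (0.17) and with the mean of log2 values (0.17). The setting with the mean was added after the data were seen. That mean weighs all 28 listed miRNAs alike, also those with few reads, whose fold changes the added 1 understates. This can raise the differences of the members. In the sum, abundant miRNAs weigh most. The most abundant was miR-127, with means of 1340 in controls and 8126 in mutants. As a share of the locus sum, miR-376b was 1.37 ± 0.261% in controls and 1.96 ± 0.178% in mutants, miR-300 was 1.73 ± 0.744% and 1.56 ± 0.199%, and miR-381 was 5.28 ± 1.03% and 6.08 ± 0.294% (SD, n = 5 each).

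**Figure D2:**
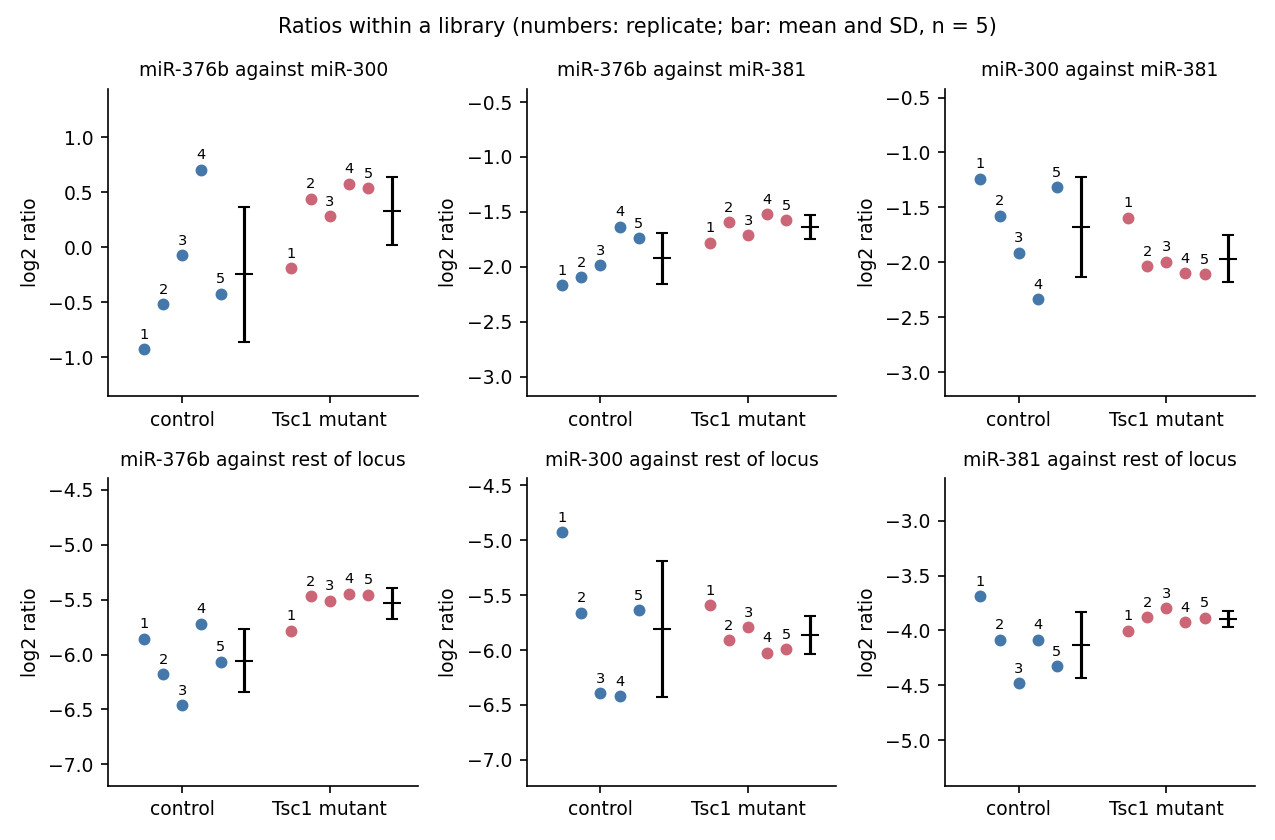
Log2 ratios within each library between pairs of members (upper row) and between a member and the sum of the other 28 listed locus miRNAs (lower row), numbered by replicate, with the mean and SD of 5 libraries as a bar. Every panel spans the same range on the log2 scale, and the groups overlap in all 6, least for miR-376b against the rest of the locus, where 4 of 5 mutants lie above every control.

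Along the locus the members stood between neighbours with lower fold changes. On the side of miR-379 the nearest listed miRNA of the table was miR-495, 4641 bases from miR-376b. Its control mean was 5.47 ± 5.36 normalised reads and its mutant mean 12.3 ± 2.44 (SD, n = 5 each). The log2 fold change of 1.31 (95% interval 0.38 to 2.24) missed the threshold, with a limma adjusted p of 0.0709. On the other side miR-382, 6874 bases from miR-381, rose from 49.5 ± 24.6 to 210 ± 49.5, a log2 fold change of 2.13 (interval 1.48 to 2.78, limma adjusted p = 2.58e-04). The interval of miR-382 overlaps those of all 3 members, and differences between members and these neighbours were not tested. The median log2 fold change was 2.85 for the members, 2.55 for the other 28 listed miRNAs, whose values ran from 1.28 to 3.00, and -0.06 for all 285. Of those 28, 25 rose and 0 fell. This list was drawn up with earlier results of these data known, and the series names the locus in its title.

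**Figure D3:**
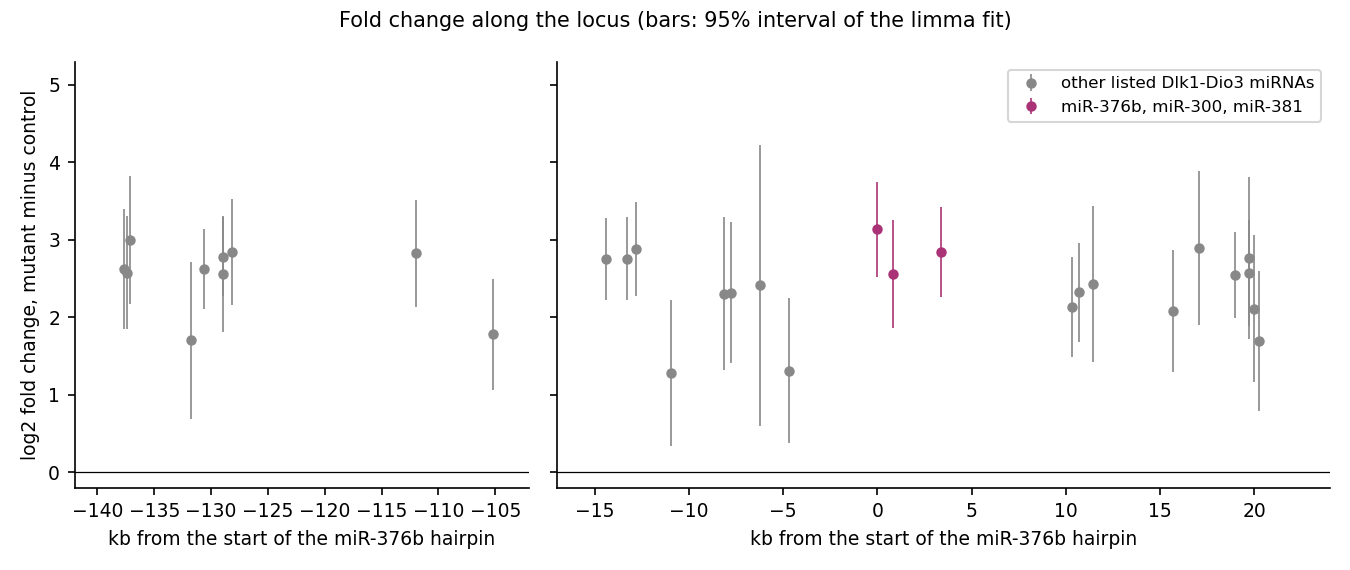
Log2 fold change (mutant minus control) of the 31 listed Dlk1-Dio3 miRNAs against the distance in kb of their hairpins from the start of the miR-376b hairpin, in 2 panels because the stretch between them holds no listed miRNA of the table. Bars are 95% intervals of the limma fit, and miR-376b, miR-300 and miR-381 (purple) lie at 3.13, 2.56 and 2.85, within the range of 1.28 to 3.00 of the others except for miR-376b.

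The profiles most like those of the members over the 10 libraries were other miRNAs of the locus. Likeness was the mean absolute difference of log2(value + 1) after each miRNA was centred on its own mean. With the members themselves left out of this ranking, the nearest to miR-376b were miR-665 at 0.17, miR-411 at 0.19 and miR-434-5p at 0.20. The nearest to miR-381 were miR-411 at 0.16, miR-434-5p at 0.17 and miR-299 at 0.18. The nearest to miR-300 were miR-134 at 0.18, miR-299 at 0.21 and miR-127 at 0.25. The closest miRNA from outside the list was miR-802, a liver miRNA, for all 3, at 0.71 from miR-376b, 0.60 from miR-300 and 0.63 from miR-381. All 12 nearest miRNAs of each member were in the locus list. These distances share the scaling and the depth of the same libraries and are a description. They also contain the genotype difference, and the list was drawn up with earlier results known. Nearness to locus miRNAs therefore partly restates the shared rise.

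Between themselves miR-376b and miR-381 were closer, at 0.18, which would rank 2 for miR-376b and 4 for miR-381 among all miRNAs, than either was to miR-300, at 0.47 and 0.31. The pair most alike in profile was thus not the pair most alike in sequence, which is miR-300 and miR-381. With profiles centred within each genotype, so that the genotype difference drops out, miR-381 was still the second nearest to miR-376b, at 0.14. For miR-300 only 5 of the 12 nearest were then locus miRNAs, against 11 of 12 for both others, and the nearest from outside the list was miR-143, a smooth muscle miRNA, at 0.19.

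**Figure D4:**
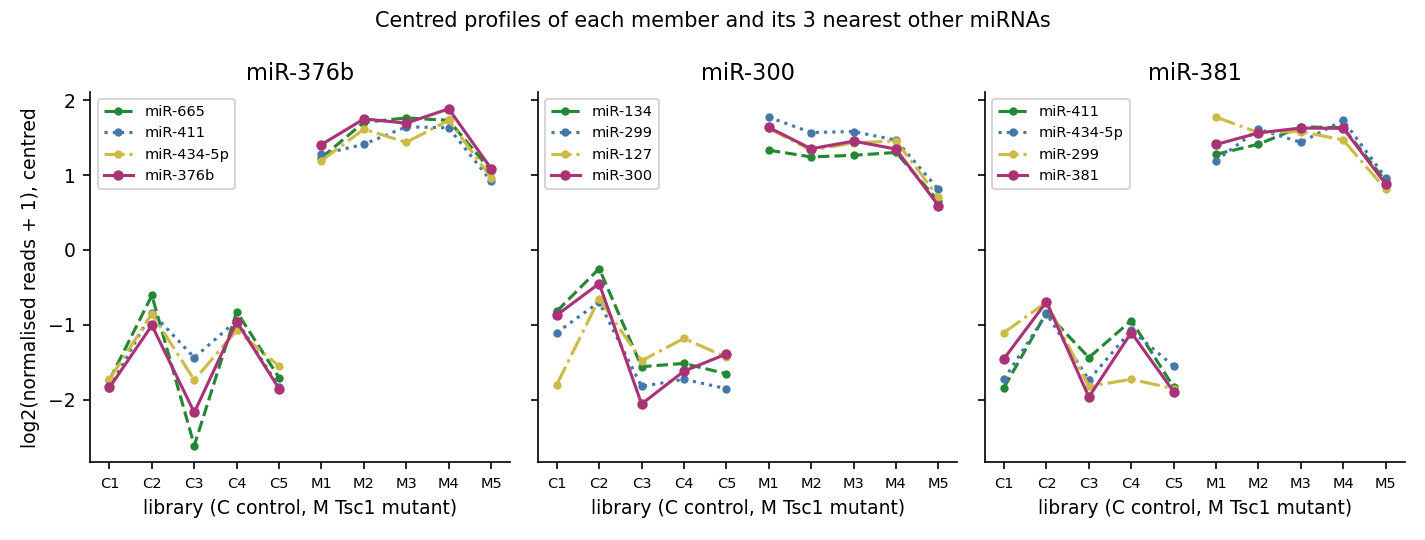
Centred log2(normalised reads + 1) of each member and its 3 nearest other miRNAs in control (C1 to C5) and Tsc1 mutant (M1 to M5) libraries, where lines only join the points of a miRNA within a genotype. The curves of miR-376b and miR-381 follow their neighbours within a mean of 0.20 on the log2 scale, and those of miR-300 within 0.25.

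The libraries were checked for the tissue and for other cell types by miRNA lists. miR-122, the hepatocyte miRNA, averaged 3174502 normalised reads in controls and 2699953 in mutants, a log2 fold change of -0.21 (limma adjusted p = 0.608). In the other cell type lists 0 of 6 biliary epithelial, 7 stellate and smooth muscle, 2 endothelial, 8 leukocyte, 3 erythroid, 3 striated muscle and 3 neural rows rose or fell, and 0 of these rows were at 0 in all libraries. Outside the locus list only 1.18% of miRNAs rose and 2.36% fell, so 0 in such short lists is near that share and says little about cell composition. Of the 4 hepatocyte rows, 1 rose, which was miR-802. In the other lists, in order, the most abundant rows were miR-200b at -0.68, miR-143 at -0.39, miR-126-3p at -0.02 and miR-146a at -0.21. For the erythroid, striated muscle and neural lists they were miR-486 at 0.11, miR-1a at -1.27 and miR-128 at -0.43. All of these are log2 fold changes. Summed striated muscle miRNAs ran from 268 to 5638 normalised reads in controls and from 151 to 919 in mutants, and biliary epithelial ones from 5035 to 36779 and from 3165 to 7055. Both highest values were those of control replicate 2, which was also the highest control for miR-300 and miR-381, and the part of such cells in the members' values was not tested. Neural miRNAs, from a tissue where the cluster is active, summed to 742 to 1883 in controls and 579 to 1223 in mutants. Most of that sum was miR-128, with means of 1260 in controls and 914 in mutants. miR-137, a brain-enriched miRNA that is not in the neural list, passed as higher with a log2 fold change of 0.90 (limma adjusted p = 0.0395), and its groups overlapped. It was 1 of the 3 miRNAs outside the locus list that passed as higher, with miR-802 at 1.72 and miR-29a at 0.34, and its part in the members' values was not tested. Calls outside the list changed with the libraries used. Leaving out control replicate 3, 4 or 5 or mutant replicate 2, 3 or 4 gave 28 passing as higher, 27 in the locus list. Without control replicate 1 these numbers were 34 and 27. Which of the 3 miRNAs kept the call in these fits is not reported here. Without control replicate 2 the log2 fold changes were 3.27 for miR-376b, 2.76 for miR-300 and 3.03 for miR-381. Control replicate 1 and mutant replicate 1 deviated from their groups in the same way over all miRNAs (correlation 0.81 across miRNAs, which are not independent), and without both the log2 fold changes were 3.10 for miR-376b, 2.57 for miR-300 and 2.84 for miR-381.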

How the data were processed

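Small RNA of 10 mouse liver libraries was sequenced on an Illumina instrument after TRIzol extraction, per the labels' protocols. The authors deposited 1 table of normalised signal, in which miRNA read counts were divided by 1 factor per library. DESeq is named, without a version, per the submitters' processing notes. Aligner, annotation, build and filters: not given in the sources used here. In 100% of values the deposited signal was a whole multiple of 1 step per library within 0.001, and that step (0.711 to 1.68 normalised reads) was taken as 1 read. Without molecular identifiers reads are not independent molecules, so intervals of shares cover counting error only. Whether each library is a separate animal is not stated, so p-values measure the spread between these libraries.

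Values were compared as log2(value + 1) with limma 3.58.1 in R 4.3.3, with an intensity trend, over all 285 miRNAs, all of which had mean values of 5 normalised reads or more. Fold changes on this scale understate changes of miRNAs with few reads. Ratios within a library were tested by 2-sided exact permutation over all 252 splits, for which the smallest p is 0.00794. The tests were checked on simulated data. The text names the members, for each the 3 miRNAs nearest in profile, the nearest listed neighbour on each side and the most abundant row of each cell type list. miR-377, miR-802, miR-137 and miR-29a fall outside that rule and were named after their values were seen. The members and all lists were chosen with earlier results of these data known. Alternatives were other pseudocounts, filters, scalings, weights, a replicate block and left-out libraries. Figures were drawn with matplotlib 3.10.9. Hairpins of miR-299 and miR-496 were taken as Mir299a and Mir496a.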

Additional observations from a re-analysis of the deposited data

Results flagged for a closer look

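A gap to the nearest library that was large for the range of its group set 1 library aside in 3 of the 22 groups of 5 examined, where chance gives about 1.1 (1 in 20). The groups share libraries and members and are not separate events. Tsc1 mutant replicate 5 had a sum of the members of 1508 normalised reads, with the other mutants from 2253 to 2553, and still lay above every control. Tsc1 mutant replicate 1 had a log2 ratio of miR-300 to miR-381 of -1.59, against -2.11 to -1.996 in the other mutants. The same library had a log2 ratio of miR-376b to the rest of the locus of -5.78, against -5.51 to -5.44 in the others.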

How the results depend on the processing

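The rise of each member kept its call in all 25 alternatives, with log2 fold changes of 2.98 to 3.31 for miR-376b, 2.36 to 2.88 for miR-300 and 2.71 to 3.08 for miR-381, and the highest limma adjusted p was 8.57e-04. The summed members stayed within 1 SD, at 2.69 to 3.09 on the log2 scale. The fit without a filter could not differ, because all 285 miRNAs already passed the filter. A replicate block balanced over the genotypes cannot change the fold changes, only their errors (limma adjusted p = 1.60e-05 for miR-376b). With the block the number that fell rose from 6 to 10. Same-numbered libraries deviated together in 3 of 5 pairs (correlation over 0.1), so a pairing by number was not established, and 2 of 5 pairs correlated best with their own number. For the ratios, an exact sign-flip test over the replicate block cannot go below p = 0.0625. Of all miRNAs 31 rose, from 28 to 34 with single libraries left out. A smaller fit left out the other 28 listed miRNAs, 25 of which had risen, and in it 4 rose, among them the 3 members. The number that fell was 23 with array weights, 2 in that smaller fit, 11 without both replicates 1, 13 without control replicate 2 as well, and 2 to 10 with single libraries left out. The cause was not tested. With single libraries left out, the log2 differences were 0.41 to 0.81 for miR-376b against miR-300, 0.23 to 0.36 against miR-381 and 0.42 to 0.61 against the rest of the locus, 0.15 to 0.35 for miR-381 and -0.21 to 0.17 for miR-300 against that rest. With the rest as a mean of log2 values they were 0.74, 0.46 and 0.17 for miR-376b, miR-381 and miR-300. Without both replicates 1 the ratio of miR-376b to the rest of the locus differed by 0.64 and that of miR-300 by 0.099. Without control replicate 2 as well, the differences were 0.39 for miR-376b against miR-300, 0.19 against miR-381, and 0.43 for miR-381 and 0.22 for miR-300 against the rest. The fits without the other listed miRNAs, with voom on whole reads, with several libraries left out and with that mean were added after the data were seen. Planned count models on whole reads were not run, because under 100 values per library were low enough to check the step. The voom fit, the whole reads, the counting errors and the binomial intervals rest on that same step.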
